A study of Mus musculus with 2 samples.

Results

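Natural killer cells of the mouse parotid gland were taken here as the kept barcodes that met a rule on UMIs (unique molecular identifiers, tags that mark single RNA molecules). The rule asked for at least 2 UMIs over Ncr1, Gzma, Klra7, Klra3 and Xcl1, no UMI of Cd3d, Cd3e or Cd3g, and fewer than 3 UMIs over Cd79a, Cd79b and Ms4a1. It found 59 of 8664 kept cells, 20 of 3378 in the control library and 39 of 5286 in the irradiated (IR) library. Both libraries came from parotid glands of female wild-type C3H mice, with the cells of 2 mice pooled per condition before the droplets were made, so each condition was 1 library without a replicate. The IR mice had received 6 Gy on each of 5 days (30 Gy in total) to the head and neck at 6 to 10 weeks of age and were killed 10 months later, at about 1 year of age, with non-irradiated mice as controls. The glands were broken down with enzymes at body temperature, and single-cell libraries were made with the 10x Chromium kit, which counts the 3′ ends of transcripts. The deposited control matrix has 5550 barcodes and 22707876 UMIs in total, the IR matrix 7793 and 23890757. Cells of 1 library are not replicates of a condition, so no test between conditions could be run and no p-value is given. For each class of cells and each library the UMIs of a gene were added up and divided by the class total, and the level is given per 1e6 UMIs (CPM), with ratios taken between CPM. The 95% intervals (exact Poisson for sums, Clopper-Pearson for shares, exact conditional binomial for ratios) reflect counting error alone, and how far mice differ is unknown.

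Natural killer cells are innate lymphocytes that kill infected or altered cells without a rearranged antigen receptor. They weigh signals of activating receptors, such as NKp46 (the product of Ncr1) and NKG2D (Klrk1), against inhibitory receptors for MHC class I, such as members of the Ly49 (Klra) and CD94-NKG2A (Klrd1 and Klrc1) families, and pass activating signals on through the adaptors DAP12 (Tyrobp) and FcRgamma (Fcer1g). Granzymes and perforin carry out killing, Xcl1, Ccl3, Ccl4 and Ccl5 draw other leukocytes, and interferon gamma (Ifng) acts on macrophages and the epithelium.

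The transcription factors T-bet and Eomes, which bind T-box sites, and Runx3, which binds Runx sites, are known regulators of killer genes, so the promoters of a receptor and of 2 granule genes are shown for the letters of both motifs. Each run is the 250 bases before the transcription start in RefSeq (GRCm38.p6), 5′ to 3′ on the strand of the gene, with a Runx core (TGTGGT, or ACCACA on the other strand) or a T-box core (AGGTGT, or ACACCT on the other strand) in capitals.
Ncr1, chr7:4337474-4337723, plus strand: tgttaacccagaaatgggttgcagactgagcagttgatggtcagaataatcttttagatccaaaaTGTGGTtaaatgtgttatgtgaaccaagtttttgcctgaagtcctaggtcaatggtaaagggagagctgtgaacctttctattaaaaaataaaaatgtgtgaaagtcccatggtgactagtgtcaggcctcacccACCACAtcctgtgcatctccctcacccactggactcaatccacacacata
Gzma, chr13:113100982-113101231, minus strand: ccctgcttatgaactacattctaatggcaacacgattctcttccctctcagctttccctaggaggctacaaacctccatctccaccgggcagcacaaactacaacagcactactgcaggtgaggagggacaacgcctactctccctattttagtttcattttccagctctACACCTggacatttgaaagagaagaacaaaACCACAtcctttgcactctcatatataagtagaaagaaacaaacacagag
Prf1, chr10:61297586-61297835, plus strand: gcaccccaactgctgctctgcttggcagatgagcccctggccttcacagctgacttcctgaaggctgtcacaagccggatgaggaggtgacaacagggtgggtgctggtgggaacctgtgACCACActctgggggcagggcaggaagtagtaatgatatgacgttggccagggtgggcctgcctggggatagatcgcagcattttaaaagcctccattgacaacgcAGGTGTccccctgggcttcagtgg

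The Ncr1 promoter held 2 Runx cores, which begin 185 and 50 bases before the start, and no T-box core. The Gzma promoter held a T-box core 80 bases and a Runx core 50 bases before the start, and the Prf1 promoter a Runx core 130 bases and a T-box core 24 bases before it. Of all 27025 promoters of this length, searched on both strands, 3832 (14.2%) held a Runx core, 3241 (12%) a T-box core and 597 (2.21%) both. The 5 genes of the rule and 10 further natural killer markers gave 13 genes with a promoter entry, of which 8 held a Runx core, 3 a T-box core and 3 both, the last being Gzma, Prf1 and Nkg7. These are matches of letters and not sites shown to be bound.

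Natural killer markers outside the rule were counted in each member. The 10 markers were the receptor genes Klrb1c, Klrk1, Klrd1 and Klre1, the factors Eomes and Tbx21, the effectors Prf1 and Nkg7, and the adaptors Tyrobp and Fcer1g. At least 3 of them had a UMI in 54 of the 59 members, 17 in control and 37 in IR, and the median member had 6 in control and 5 in IR. Cells with a sum of 1 over the rule genes, which were left out, had a median of 2.5 of these markers in control and 3 in IR, and cells left out for a UMI of Cd3 had 3 and 4, at higher median depths than the members. Members with a sum of exactly 2 had medians of 2.5 in control, as just outside the limit, and 4 in IR. Of the 59 members, 2 had none of the markers, 2 had 1 and 1 had 2. The last, a control member with macrophage genes, had 19 UMIs of Tyrobp and 26 of Fcer1g. Control cells with a sum of 1 had Tyrobp at 1031 CPM but Nkg7 at 21.2 CPM. Tyrobp and Fcer1g were thus not confined to natural killer cells, and the number of markers alone does not settle what a member is. The transcripts of the rule itself were spread unevenly, which describes the choice of members and is no finding. Gzma had 320 UMIs in 11 control members and 146 UMIs in 18 IR members, and Ncr1, which encodes the receptor NKp46, had 21 UMIs in 9 and 52 UMIs in 25. Xcl1 had 64 UMIs in 10 control members and 44 UMIs in 16 IR members, and 1 control member held 60.9% of the control UMIs. Klra3 or Klra7 had a UMI in 28 members and both in 4, and these values are uncertain, because Klra genes are a cluster of close relatives whose content differs between inbred strains and reads were aligned to a reference of another strain.

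**Figure D1:**
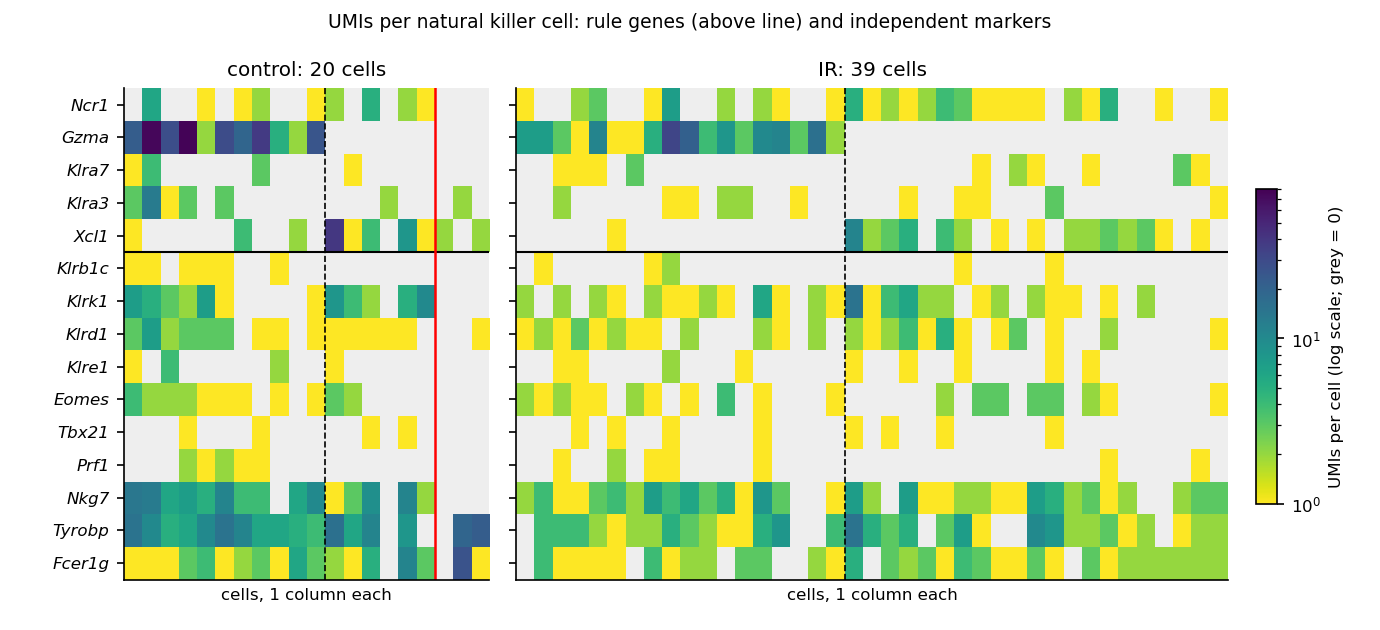
UMIs of the 5 rule genes (above the black line) and the 10 independent markers in each of the 20 control and 39 IR natural killer cells, 1 column per cell, on a log colour scale with 0 in grey. Cells with a Gzma UMI stand left of the dashed line, and the 3 control cells right of the red line carry no Nkg7, Klrk1 or Eomes UMI. A few other cells of both libraries also carry none of these.

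Of the control members, 3 stood apart, and many of the results below are given with and without them. The first had 14634 UMIs, of which 9792 (66.9%) came from 16 secretory genes, had 2 Xcl1 UMIs and none of the 10 independent markers. The second had 10697 UMIs, among them 81 of C1qa, 28 of C1qb and 13 of Csf1r, genes of macrophages, and 2 of Klra3. The third had 4490 UMIs, among them 8 of Siglech, a gene of plasmacytoid dendritic cells, with 2 of Xcl1, 22 of Tyrobp and 1 of Klrd1, and is among the 54 members with at least 3 markers. Together they held 29821 of the 94772 control UMIs (31.5%). The other 17 control members held none of Csf1r, Adgre1, Cd68, C1qa or C1qb, and 4 of 14 myeloid markers with 5 UMIs in all (77 CPM), led by Itgax with 2. With all 20 members, 9 of the 14 had a UMI and their sum was 1752 CPM, led by C1qa, and in IR it was 24.9 CPM from 2 of the 14. Leaving out the 3 was chosen after their values were seen.

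Depth differed between the conditions. The control members had a median of 3600.5 UMIs (1821 to 14634) and 1458.5 genes, and the IR members 1928 UMIs (621 to 4197) and 1001 genes. Without the 3, the control median was 3402 UMIs. The IR library had lower medians than the control library in the other lymphocyte classes too, with 3403 against 4444 UMIs in killer T cells and 2190.5 against 2539.5 in B cells. No member shared its barcode with the other library, although 12 barcodes occurred in both. At the limit of the rule, 13 members had a sum of exactly 2 UMIs over the rule genes, 6 in control and 7 in IR, and 24 cells had a sum of 1 and were left out, 10 in control and 14 in IR. Nkg7, which is not in the rule, was at 121 CPM in the 6 control members with a sum of 2 and at 1888 CPM in the 14 with more, and at 21.2 CPM in the 10 cells just outside. In IR the corresponding levels of Nkg7 were 1158 CPM, 1361 CPM and 134 CPM. All 3 control cells that stood apart had a sum of 2. A further 21 control and 39 IR cells had at least 2 UMIs of the rule genes but also UMIs of Cd3 genes.

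Natural killer cells were a small share of both glands. They made up 0.592% of the kept control cells (95% interval 0.362 to 0.913) and 0.738% of the IR cells (0.525 to 1.01), a ratio of IR over control of 1.25 (0.709 to 2.26). Without the 3 control members the control share was 0.503% (0.293 to 0.805). The interval of the ratio, which reflects the number of cells alone and is no test between conditions, included 1. The ratio depended on the cells counted beside them. Among cells with a UMI of Ptprc, the pan-leukocyte gene, they were 1.13% in control and 1.07% in IR, and among natural killer, T and B cells together 0.972% and 1.01%. Per 100 B cells there were 2.59 natural killer cells in control and 5.1 in IR, a ratio of 1.97 (1.12 to 3.57), while per 100 T cells there were 1.58 and 1.28, a ratio of 0.809 (0.461 to 1.46). Fewer cells of another class and more natural killer cells cannot be told apart in these shares, and the yield of each cell type after dissociation was not measured.

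To place the natural killer cells among the lymphocytes of the gland, they were set beside 3 classes defined by UMIs. Killer T cells had a UMI of Cd3, a UMI of Cd8a or Cd8b1 and at least 2 of Nkg7 and Ccl5 (204 control and 435 IR cells). Cxcr6 T cells had a UMI of Cd3 and of Cxcr6 and none of Cd8 (75 and 131), and B cells had at least 3 UMIs of Cd79a, Cd79b and Ms4a1 (772 and 764). A gene was called higher or lower where the CPM differed at least 2-fold in the same direction in both libraries, from at least 20 UMIs over both classes, and genes used in the rules were left out of the counts. Against killer T cells 501 of 7678 genes (6.53%) were called higher in natural killer cells and 130 (1.69%) lower, and without the 3 control members 569 of 7612 (7.48%) and 81 (1.06%). The median ratio over all these genes was 1.32 in control and 1.4 in IR. TMM factors, which assume that most genes do not differ, moved the median gene by -0.47 in control and -0.58 in IR on the log2 scale and turned the balance to 219 higher and 468 lower, so the balance of calls depends on the scaling. Many called genes were hardly detected in the small natural killer class. Among the 1255 genes with at least 20 UMIs in the members 132 (10.5%) were called higher and 16 (1.27%) lower, and without the 3 control members 141 of 1093 (12.9%) and 4 (0.366%).

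Among the receptors, Klrk1 (NKG2D, which recognises stress-induced ligands) was at 580 CPM in control and 796 CPM in IR natural killer cells, against 135 and 173 CPM in killer T cells, ratios of 4.29 (3.07 to 5.92) and 4.59 (3.44 to 6.05). Klrd1, the CD94 chain shared by inhibitory and activating NKG2 receptors, was at 317 and 535 CPM against 131 and 173 CPM. Both genes were at least 2-fold higher in natural killer cells in each library, although killer T cells also carried them. Without the control cells that stood apart, the control level of Klrk1 was above its IR level. Klri2, a lectin receptor gene, had 11 UMIs in each library in natural killer cells, and 0 and 2 UMIs in the far larger killer T class. Fcgr3, the Fc receptor CD16 through which natural killer cells recognise antibody-coated cells, was at 95 and 162 CPM against 5.13 and 5.06 CPM, and Klre1, whose product pairs with inhibitory or activating partners, at 84.4 and 124 CPM against 5.13 and 5.69 CPM. The Fcgr3 levels rest on 9 and 13 UMIs, the 9 counted with the control cells that stood apart. Without those cells Fcgr3 was still called higher. Counts over the lists that follow are to be read beside the 6.53% of all genes called higher than in killer T cells and the 1.69% called lower. Of the 7 measurable activating receptor genes 2 were called higher (Klrk1 and Fcgr3) and 1 lower, Slamf6, a receptor for its own kind on lymphocytes, at 31.7 and 37.3 CPM against 99.4 and 127 CPM. Of the 6 measurable genes on the inhibitory receptor list Klrd1, Klre1 and Klri2 were called higher and none lower. The name of the list does not give the function of each member, so this count describes the list and not inhibition. Klrb1c, the NK1.1 antigen gene of some strains, had 6 UMIs in each library of natural killer cells and 2 and 0 in killer T cells.

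The adaptors Tyrobp and Fcer1g were far higher than in the other lymphocytes. Tyrobp (DAP12), which couples receptors without signalling tails to the kinase Syk, was at 1847 CPM in control (2063 without the 3) and 1492 CPM in IR, against 15.4 and 29.1 CPM in killer T cells, 56 and 98.8 CPM in Cxcr6 T cells and 39.5 and 75.1 CPM in B cells. It had a UMI in 17 of 20 control and 32 of 39 IR members, 85% and 82.1%, against 6.61% and 8.25% of B cells, the class taken as the background of free RNA. B cells were the shallower class in control (median 2539.5 UMIs) and the deeper one in IR (2190.5). With every cell thinned to 1000 UMIs, which leaves out 3 IR members and 16 control and 19 IR B cells that had fewer, the shares were 77.9% and 68.4% of members and 2.37% and 4% of B cells. Fcer1g (FcRgamma), the adaptor of CD16 and NKp46, was at 791 and 858 CPM against 7.18 and 12.6 CPM in killer T cells, ratios of 110 (51 to 284) and 67.8 (40.7 to 118). The control value of Fcer1g was 739 CPM without the 3 members, of which 1 held 26 of the 75 UMIs. Lat, the scaffold of T-cell receptor signalling, was lower in natural killer cells, at 31.7 and 62.2 CPM against 172 and 261 CPM. Hence 2 of the 12 measurable adaptor and signalling genes were called higher, where 6.53% of all genes were, and 1 lower, where 1.69% were. The other 9, which include Hcst (DAP10, the partner of NKG2D) at 222 and 311 CPM against 466 and 302 CPM, were not called.

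**Figure D2:**
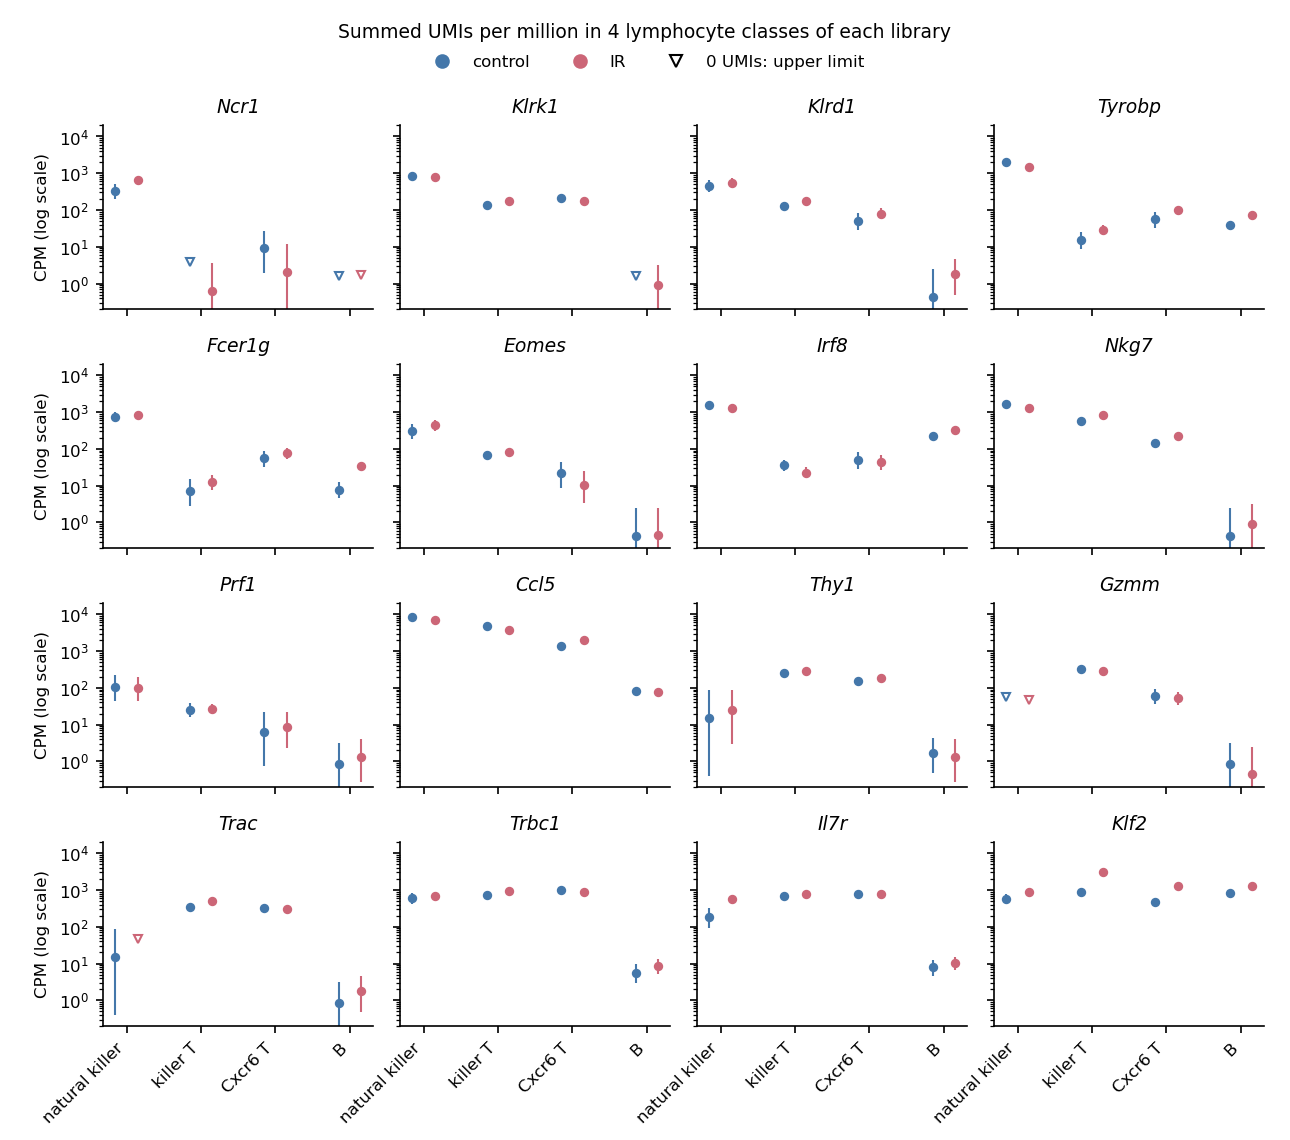
CPM (log axis) of 16 genes in natural killer, killer T, Cxcr6 T and B cells of the control and IR libraries, with exact Poisson 95% intervals and open triangles at the upper limit where no UMI was found; the control natural killer cells are the 17 left without the 3 that stood apart. Tyrobp, Fcer1g, Irf8 and Eomes are higher in natural killer cells than in the 3 other classes of both libraries, Trac is at or near 0 in natural killer cells, Trbc1 is at a level near that of T cells, and Gzmm has no UMI.

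The granule and killing genes followed no single direction. Prf1 (perforin) had 7 UMIs in 5 control members and 8 UMIs in 7 IR members, 73.9 and 99.5 CPM, against 25.6 and 27.2 CPM in killer T cells. Gzmb (granzyme B) was at 127 and 162 CPM against 21.5 and 32.9 CPM. Serpinb9, an inhibitor of granzyme B that protects the killer cell, was at 538 and 622 CPM against 115 and 50.6 CPM, ratios of 4.69 (3.3 to 6.58) and 12.3 (8.45 to 17.7), and its relative Serpinb6b was at 295 and 361 CPM against 100 and 36 CPM. These genes and Stx11, which acts in granule fusion, were the 5 of 14 measurable granule genes called higher (6.53% over all genes). Gzmm (granzyme M) was the only one called lower (1.69% over all genes). It had no UMI in any of the 59 members, whereas killer T cells had 325 and 293 CPM, and with the floor of 3 UMIs over the class its level was at most 0.0974 times that of killer T cells in control and 0.127 times in IR. Gzma itself was nearly absent from killer T cells, with 6 UMIs in 204 control and 24 UMIs in 435 IR cells. Nkg7, a granule membrane gene that defined the killer T class, was at 1118 and 1330 CPM in natural killer cells and at 0.434 and 0.9 CPM in B cells. Without the control cells that stood apart, its control level was above its IR level.

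Ccl5, a chemokine for T cells and myeloid cells, was at 5898 and 7199 CPM and had a UMI in 15 of 20 control and 38 of 39 IR members. Without the control cells that stood apart it was at 8606 CPM in control, above the IR level. Ifng had 21 UMIs (222 CPM) in control and 30 UMIs (373 CPM) in IR natural killer cells, against 13.3 and 56.3 CPM in killer T cells. In control 3 members held all Ifng UMIs and 1 of them 76.2%, whereas in IR 14 members held a UMI, so the control level rested mostly on a single cell. Ccl3 was at 84.4 and 211 CPM against 2.05 and 20.2 CPM, but its 17 IR UMIs lay in 4 members, of which 1 held 76.5%, and the 24 IR UMIs of Ccl4 lay in 2 members. Ccl3 and Ifng were the 2 of 6 measurable chemokine and cytokine genes called higher than in killer T cells, and none was called lower, against 6.53% and 1.69% over all genes. Ltb (lymphotoxin beta, which shapes lymphoid tissue) was at 369 and 721 CPM against 265 and 666 CPM.

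Among cytokine receptors, Il2rb, the chain that binds IL-15 and IL-2, was at 285 and 709 CPM against 132 and 117 CPM in killer T cells, and Il18rap, a subunit of the IL-18 receptor, at 95 and 99.5 CPM against 40 and 26.6 CPM. These 2 of 13 were called higher and none lower, against 6.53% and 1.69% over all genes. Without the 3 control members Il12rb2 and Tgfbr1 were called higher as well, which made 4, where 7.48% of all genes were. Il7r, the IL-7 receptor, was at 137 and 559 CPM against 686 and 796 CPM, and so below killer T cells in control, with a ratio of 0.2 (0.106 to 0.344), and nearer to them in IR, with 0.703 (0.51 to 0.946).

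The transcription factor list held 15 measurable genes, of which 7 were called higher than in killer T cells (6.53% over all genes) and none lower. Without the 3 control members 10 were called higher and none lower, with Runx3, Tox and Stat4 added to the 7. The calls over all genes lean the same way on this scale, with 501 higher and 130 lower. Irf8, a factor of the interferon response needed for antiviral natural killer cells, was at 1277 and 1293 CPM, against 35.9 and 22.8 CPM in killer T cells and 223 and 319 CPM in B cells, where it is also a lineage gene. Its ratios over killer T cells were 35.6 (24.3 to 53.4) and 56.8 (38.5 to 85.5). Eomes, which marks mature natural killer cells against other innate lymphocytes, was at 211 and 435 CPM against 68.7 and 80.3 CPM, with a UMI in 11 of 20 and 19 of 39 members. Id2, an inhibitor of E proteins that innate lymphocytes require, was at 475 and 535 CPM against 84.1 and 74.6 CPM. Nfil3, which is required for natural killer cells to develop, was at 137 and 261 CPM against 56.4 and 66.4 CPM. The other 3 of the 7 were Ikzf2, Zeb2 and Bhlhe40. Tbx21 (T-bet) had 4 and 8 UMIs, and its ratio over killer T cells was 1.33 (0.341 to 3.76) in control and 4.77 (1.9 to 10.5) in IR, so it was not called.

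Genes of maturation and homing placed the cells further. Cd27, a mark of less mature or less cytotoxic natural killer cells, was at 243 and 609 CPM, while Itgam (CD11b), a mark of mature circulating ones, had 3 UMIs, all in 1 of the control cells that stood apart, and none in IR. S1pr5, which guides mature natural killer cells out of lymphoid tissue, had no UMI in the 59 members. At their depth this does not limit the share of cells that express it. S1pr1, the exit receptor of T cells, had 0 and 2 UMIs and was lower than in killer T cells (185 and 260 CPM), as was Thy1, with 2 UMIs in each library against 252 and 293 CPM. The chemokine receptor Ccr2, at 106 and 224 CPM against 11.3 and 24 CPM, was higher, as was the integrin Itga4, at 137 and 336 CPM against 24.6 and 37.3 CPM. Of the 14 measurable genes of this list 3 were called higher and 2 lower, against 6.53% and 1.69% over all genes. Without the 3 control members Cxcr3 and Ly6c2 were also called lower, which made 4. Of the 9 genes of ILC1 and tissue residence, 6 had a UMI in each library. They summed to 433 CPM in control (570 CPM without the 3) and 1268 CPM in IR, against 931 and 1085 CPM in killer T cells and 36 and 50.8 CPM in B cells. Rora, at 211 and 423 CPM, was the most abundant of them in control and Il7r in IR, while Itga1 (CD49a) had 1 UMI, Cxcr6 1 and 4, and Itgae and Zfp683 none. None of the 5 measurable genes of this list was called against killer T cells (Rora was called higher without the 3), and all 3 measurable against B cells, Rora, Inpp4b and Il7r, were called higher, where 8.57% of all genes were. Of the 8 genes of helper innate lymphocytes (ILC2 and ILC3) Gata3 had 3 and 4 UMIs, Areg 1 in IR and the other 6 none.

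Set beside Cxcr6 T cells, 218 of 5129 genes (4.25%) were called higher and 181 (3.53%) lower, and without the 3 control members 274 of 5024 (5.45%) and 165 (3.28%). With TMM factors 113 were called higher and 352 lower. Of the 1257 genes with at least 20 UMIs in the members 86 (6.84%) were higher and 10 (0.796%) lower, and without the 3 control members 110 of 1095 (10%) and 13 (1.19%). Eomes had a ratio of 9.68 (3.93 to 27.1) in control and 41.4 (16.1 to 135) in IR, and Irf8 25.6 (15.2 to 46.3) and 29.3 (18.2 to 49.3). Of 13 measurable granule and killing genes 6 were called higher, Prf1, Nkg7, Ctsw, Serpinb9, Serpinb6b and Fasl, and 1 lower, Stx11, which was not called without the 3. Those called lower included the haemoglobin genes Hba-a1, Hbb-bs and Hbb-bt, with ratios of 0.0443 and 0.0604 for Hba-a1. They also included Il17a, which had no UMI in natural killer cells and 361 and 275 CPM in Cxcr6 T cells, and Areg, a repair factor. Id2, high against killer T cells, was not: it was at 475 and 535 CPM against 697 and 408 CPM. Rora was at 211 and 423 CPM against 856 and 685 CPM. Against B cells 780 of 9100 genes (8.57%) were called higher and 206 (2.26%) lower, and without the 3 control members 911 of 9065 (10%) and 186 (2.05%). With TMM factors the counts were 351 and 548. Of the 1257 genes with at least 20 UMIs in the members 208 (16.5%) were higher and 13 (1.03%) lower, and without the 3 control members 236 of 1095 (21.6%) and 9 (0.822%).

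Transcripts of T-cell receptor constant regions were found in most members, although the rule excluded Cd3. Trbc1 had 39 UMIs in 12 control and 56 UMIs in 28 IR members (412 and 696 CPM), against 720 and 916 CPM in killer T cells, and the ratios were 0.572 (0.403 to 0.79) and 0.76 (0.571 to 0.992). Trbc2 had 24 UMIs in 6 and 17 UMIs in 10 members, 253 and 211 CPM against 1130 and 1517 CPM. By contrast Trac had 1 UMI in all, and Cd5 and Cd6 had none, against 349 and 505 CPM of Trac in killer T cells. A UMI of Trac, Trbc1, Trbc2 or Cd5 was present in 15 control and 31 IR members, 46 of 59 or 78%. In the 5 control members without any, of which 2 are cells that stood apart, the ratio over killer T cells was 0.592 for Eomes and 0.929 for Klrd1, below 1 and so in the other direction than with all members. In the 8 such IR members the ratios were 3.92 and 1.37, above 1 as with all members. Trdc had a UMI in 3 control and 5 IR members. B cells, which should lack these transcripts, had 5.64 and 8.55 CPM of Trbc1. Of the 13 T-cell markers, 10 had a UMI in control and 5 in IR natural killer cells, with 1013 and 1231 CPM in all and Trbc1 the most abundant, against 3551 and 5003 CPM in killer T cells. Without the control cells that stood apart, 8 had a UMI in control and their sum was 1262 CPM, with Cd4 and Cd8b1 at 0. The markers Trac, Trbc2, Cd5, Cd6, Lef1 and Bcl11b were called lower than in killer T cells and Trdc higher. The part of T cells with no Cd3 UMI among the members was not tested.

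Markers of B cells, secretory and epithelial cells, red cells and cycling cells were summed in the same way. Of 9 B-cell markers, 4 had a UMI in control and 2 in IR members, 338 and 99.5 CPM in all with Ighm the most abundant. Without the 3 control members the control sum was 154 CPM, led by Igkc. Cd79a, Ms4a1, Ebf1 and Pax5 were among those at 0. All 11 secretory and epithelial genes had a UMI, and Bpifa2, a salivary protein and the most abundant of them, was found in each of the 59 members, as in every other kept cell of both libraries. The list summed to 112597 CPM in control, 35119 CPM without the 3 members and 54593 CPM in IR, against 116795 and 90728 CPM in B cells. The 4 haemoglobin genes summed to 686 and 696 CPM, with Hbb-bs the most abundant and Hba-a2 at 0. Of 7 cycling genes, 4 had a UMI in each library, with 327 and 211 CPM in all; Stmn1 was the most abundant and Mki67, Birc5 and Ube2c were at 0.

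Among the 15 genes outside the rule that stood highest over all other kept cells of the same library were, by the lower of the ratios in the 2 libraries, Eomes, Ifng, Spry2, Klrk1, Trf, Serpinb9, Fcer1g, Cd7, Tyrobp, Tnfrsf9, Metrnl, Klrd1, Ccr2 and Sytl3. The ranking covered 974 genes with at least 25 UMIs in the members. The members were picked by their transcripts, so this order is a description of them. Spry2, an inhibitor of growth factor signalling, was at 52.8 CPM in control and 249 CPM in IR natural killer cells and at 1.58 and 3.01 CPM in the other cells. Metrnl, a secreted protein, was at 179 and 361 CPM against 11.2 and 8.29 CPM. Tnfrsf9 (4-1BB), a costimulatory receptor of activated killer cells, was at 274 and 311 CPM against 15.8 and 18.7 CPM, with a UMI in 24 members. Trf (transferrin) was carried by 10 members, 3 in control, and its control ratio of 22.5 became 11.5 without the 3 cells that stood apart.

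The members differed among themselves in Gzma and Xcl1, both genes of the rule. Gzma without Xcl1 was found in 25, Xcl1 without Gzma in 22, both in 4 and neither in 8. A cell could enter the set through either gene, so the small number with both is in part made by the rule and was not tested. The 29 members with a Gzma UMI were the shallower ones, with medians of 3042 UMIs in control and 1669.5 in IR, against 3952.5 in the control members without (the 3 that stood apart left out) and 2376 in the IR members without.

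**Figure D3:**
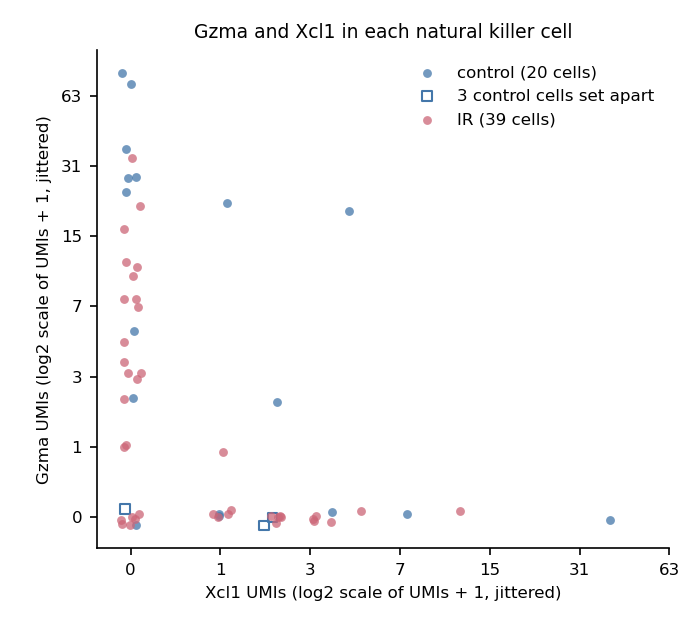
Gzma UMIs against Xcl1 UMIs in each of the 59 natural killer cells (log2 of UMIs + 1, points jittered). Most cells lie along 1 axis, 25 with Gzma alone and 22 with Xcl1 alone, and 4 cells hold both.

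Other genes were then compared between members with and without a Gzma UMI. The split rests on a gene of the rule, and a cell without Gzma could be a member only through the other rule genes, so the values describe the members and support nothing further. The split has 11 and 18 cells with Gzma against 6 (without the 3) and 21, and 26 of 1095 genes (2.37%) were called higher and 32 (2.92%) lower with Gzma. These few cells make the ratios wide, and no gene was tested. Ccl5 was at 12166 CPM in control and 10458 CPM in IR with Gzma, against 3327 and 4998 CPM without, ratios of 3.66 (2.9 to 4.65) and 2.09 (1.77 to 2.48). Gzmb had ratios of 7.41 (1.08 to 319) and 4.94 (1.27 to 27.9). Stmn1, a microtubule regulator of dividing and recently divided cells, had 24 UMIs in 7 control and 12 UMIs in 7 IR members with Gzma and no UMI in the 6 and 21 members without, so it reached the minimum of 20 UMIs only through the side where it was found. In the other direction, Il7r was at 129 and 308 CPM with Gzma against 268 and 729 CPM without, Ltb at 258 and 308 CPM against 956 and 1000 CPM, and Rora at 103 and 247 CPM against 535 and 541 CPM. Cd69, a mark of activation and of retention in tissue, had 1 and 3 UMIs with Gzma and 6 and 32 UMIs without. These 4 genes were all called lower with Gzma, although the intervals of Il7r in control (0.121 to 1.76) and Rora in IR (0.178 to 1.04) included 1. S100a4, a calcium-binding protein gene chosen after its values were seen, had no UMI in the 29 members with Gzma and 18 UMIs in 5 control and 18 UMIs in 9 IR members without. Like Stmn1, S100a4 reached the minimum of 20 UMIs only through the side where it was found. Its relative S100a6, chosen in the same way, had 1 and 4 UMIs with Gzma and 38 and 30 UMIs without. Cd74 was at 232 and 61.7 CPM with Gzma against 4130 and 292 CPM without, where 4 control and 5 IR members held its 108 and 14 UMIs. H2-Aa, a class II gene, was at 258 and 30.8 CPM against 1262 and 521 CPM, and Lgals3, a lectin gene abundant in macrophages, at 206 and 92.5 CPM against 918 and 583 CPM; both were chosen after their values were seen. All 3 were called lower with Gzma, whereas the class II genes H2-Ab1 and H2-Eb1 were not called, and the part of cells or RNA of another type in the split was not tested. Eomes, Tyrobp, Klrk1 and Nkg7 were not called in either direction. Nkg7 had ratios of 2.07 (1.32 to 3.36) and 1.57 (1.05 to 2.33). Ncr1 and the other genes of the rule were left out of these calls.

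**Figure D4:**
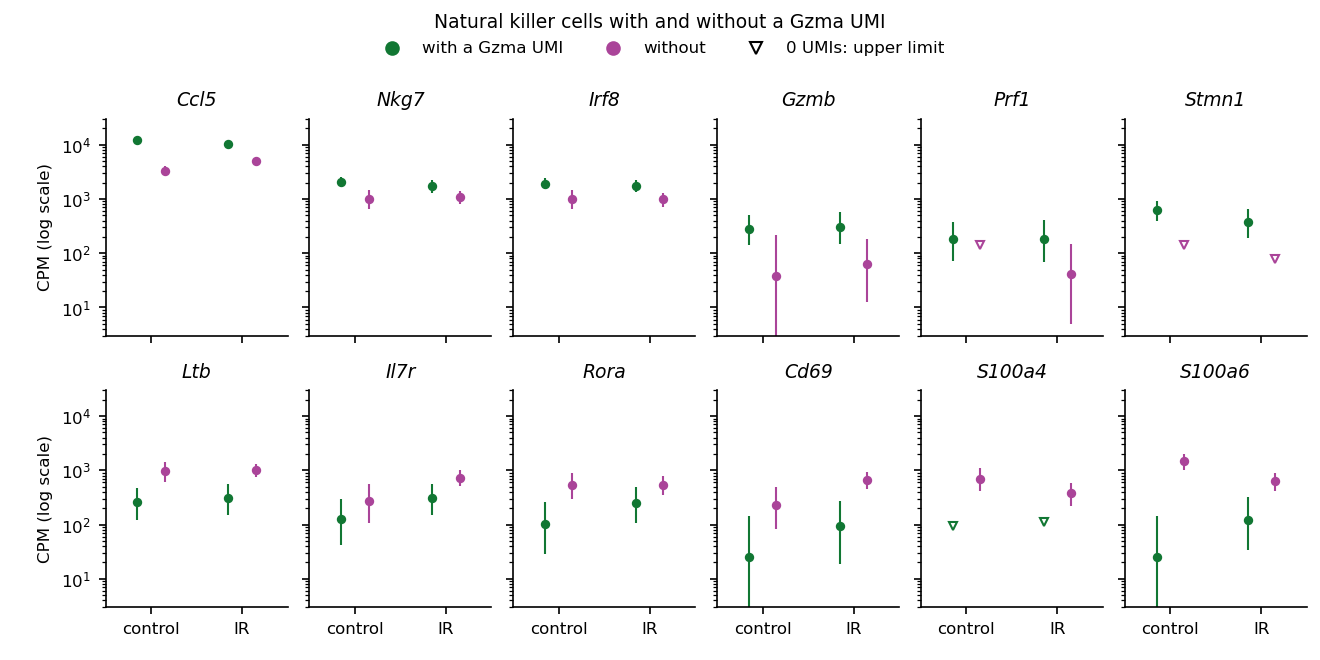
CPM (log axis) of 12 genes in natural killer cells with (green) and without (purple) a Gzma UMI in each library, with exact Poisson 95% intervals, open triangles marking the upper limit for 0 UMIs, and the control cells that stood apart left out. Ccl5, Gzmb and Stmn1 are higher with Gzma in both libraries and Ltb, Il7r, Rora, Cd69, S100a4 and S100a6 lower. Stmn1 and S100a4 reached the minimum of 20 UMIs only through the side where they were found.

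The comparison of IR with control asked which transcripts of natural killer cells differ 10 months after irradiation. Among 1262 genes with at least 20 UMIs, 181 (14.3%) were at least 2-fold higher in IR and 106 (8.4%) at least 2-fold lower. Without the 3 control members 95 of 1100 (8.64%) were higher and 73 (6.64%) lower, and TMM factors gave 101 higher and 156 lower with all 20. In killer T cells, which were more numerous, 548 of 7400 genes (7.41%) were higher and 197 (2.66%) lower. The median ratio of all genes was 1.18 with the 20 control members and 1.01 with the 17. The ratios that follow compare 1 pool of cells with another and have no replicate check.

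Of the genes higher in IR, Whsc1l1 (Nsd3), a histone methyltransferase gene, had 49 UMIs in 24 IR members and 10 UMIs in 8 control members, a ratio of 5.77 (2.89 to 12.8) and of 3.96 (1.98 to 8.76) without the 3. Rgs1, which dampens chemokine receptor signals, had 94 UMIs in 25 IR and 25 UMIs in 11 control members, a ratio of 4.43 (2.83 to 7.19) and 3.04 (1.94 to 4.93). Il7r had 45 UMIs in 17 IR and 13 UMIs in 6 control members, a ratio of 4.08 (2.16 to 8.24) and 3.03 (1.58 to 6.29). For these 3 genes the interval excluded 1 with and without the 3 cells, but they were named for their high ratios, so this is no check of them. In killer T cells the ratio was 2.06 (1.69 to 2.52) for Rgs1, which was thus called higher there too, 1.31 (1.11 to 1.54) for Whsc1l1 and 1.16 (1.06 to 1.28) for Il7r. Cebpb, a factor of inflammatory gene control, had a ratio of 3.6 (2.08 to 6.52) and 3.17 (1.74 to 6.18), Zc3hav1, an antiviral RNA-binding protein gene, 3.17 and 2.67, and the tetraspanin Cd9 3.18 and 2.3. Ncr1 had a ratio of 2.92 (1.73 to 5.1) and 2 (1.18 to 3.49), but as a gene of the rule it helped to choose the cells. Vgll4, Neurl3 and Tspo completed the 10 highest among genes with at least 50 UMIs, with ratios of 2.88, 2.76 and 2.68. Without the 3 cells, 4 of the 10 highest were instead secretory transcripts, 2310057J18Rik, Dnase1, Cst10 and Chia1. Chia1, a chitinase of the salivary secretion, was at 2448 CPM in control and 7211 CPM in IR, with UMIs in all 17 and 39 members, a ratio of 2.95. With all 20 control members it was at 15500 CPM in control and so lower in IR, with a ratio of 0.465, and after each of these members was thinned to 1000 UMIs the ratio was 1.03. The ratios of 2310057J18Rik, Dnase1 and Cst10 were likewise below 1 with all 20, at 0.707, 0.45 and 0.39, so the direction of all 4 depends on the 3 cells.

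Among genes with at least 50 UMIs, most of those lowest in IR came from the cells that stood apart. Ifi30, Ctsb, Psap and Cst3, lysosomal and antigen-processing genes, had ratios of 0.019, 0.0673, 0.276 and 0.196, and the 3 control cells held 91.9%, 97.1%, 95.1% and 83.3% of their control UMIs. The secretory transcripts Car6 and BC037156, with ratios of 0.211 and 0.299, had 88.6% and 86.9% of their control UMIs in the 3, and without them their ratios were 1.27 and 1.56. Cd74, the invariant chain of MHC class II, had a ratio of 0.0626 (0.0353 to 0.103) and of 0.11 (0.0611 to 0.187) without the 3, and H2-Eb1 0.316 and 0.346. These 2 class II genes were still lower without the 3. With at least 3 rule gene UMIs per cell the ratios were 1.25 for Cd74 and 1.13 for H2-Eb1, so the lower level did not hold there. With UMIs of at least 2 rule genes neither was among the genes whose ratio turned. The direction thus depended on which stricter rule chose the members. Cox6c, a subunit of the respiratory chain, had 44 UMIs in 14 control members and 10 UMIs in 10 IR members.

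Without the 3 cells the lowest ratios among genes with at least 50 UMIs were those of Cd74, H2-Eb1, Gzma, Lgals1 and the heat shock genes Hsp90aa1 and Hspe1. The ribosomal protein genes Rpl31, Rpl24 and Rpl41, and Atp5e, a subunit of ATP synthase, were also among these lowest. In killer T cells the ratios of Rpl31, Rpl24, Rpl41, Atp5e and Hspe1 were 0.584, 0.713, 0.521, 0.747 and 0.534, below 1 too. Those of Cd74, H2-Eb1, Lgals1 and Gzma there were 1.22, 0.974, 1.03 and 2.47. Hsp90aa1 was at 2217 CPM in the 17 control and 709 CPM in the 39 IR members, a ratio of 0.32 (0.231 to 0.437), and killer T cells gave nearly the same ratio of 0.371 (0.342 to 0.402). The study reported Hsp90aa1 as lower after irradiation in its other immune populations, but not in natural killer cells or macrophages. It compared single cells of its own clusters with a rank test, so the cells and the measure differ from those here. Hspa1a had 31 UMIs in 4 of the 17 control members and 5 UMIs in 2 IR members, and its ratio in killer T cells was 0.382 (0.305 to 0.476). Hsp90aa1 and Hspa1a were therefore at least 2-fold lower in another class of the same library too. Irradiation cannot be told apart from the handling of each pool of glands. Gzma was at 4927 CPM in the 17 control and 1815 CPM in the 39 IR members, a ratio of 0.368 (0.301 to 0.449), and at 0.538 with all 20. The share of members with a Gzma UMI was 64.7% of the 17 and 55% of all 20 in control and 46.2% in IR, and 2 control members held 150 of the 320 UMIs. Gzma, too, is a gene of the rule, so its level cannot be set apart from the choice of cells.

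**Figure D5:**
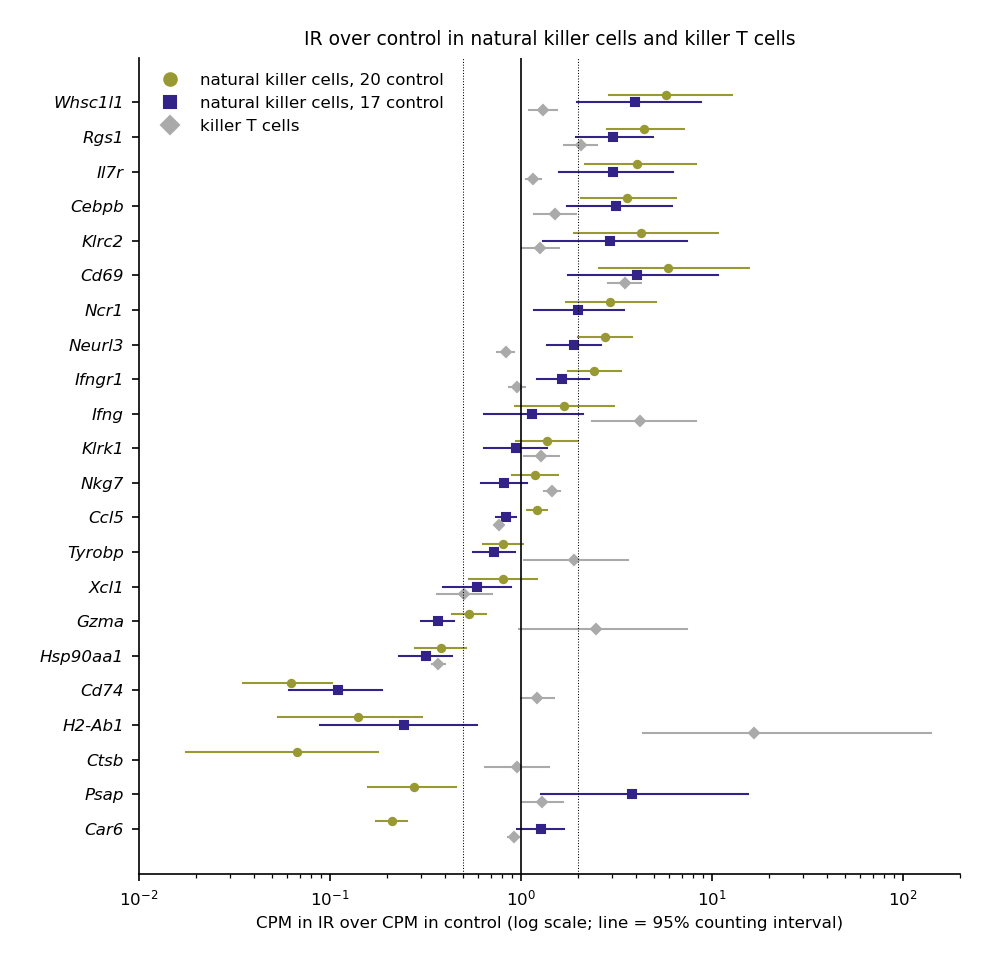
Ratios of CPM in IR over control (log axis, lines are exact 95% counting intervals) for 22 genes in natural killer cells with all 20 control members, with the 17 left after the cells that stood apart were removed, and in killer T cells; dotted lines mark 2-fold and genes with fewer than 20 UMIs have no point. Whsc1l1, Rgs1, Il7r and Cebpb are above 2 with either set of control members, Hsp90aa1 is lower in both cell types, and Car6 and Psap cross 1 when the 3 control cells are left out.

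By function, the counts that follow leave out the 3 control members and stand beside the 8.64% of all genes called higher and 6.64% called lower. Of 3 measurable activating receptor genes only Klrc2 (NKG2C) was called higher, with a ratio of 2.93 (1.31 to 7.41). Of 5 genes on the inhibitory receptor list only Klrc1 (NKG2A) was called higher, with 2.32 (1 to 6). Klrk1 had 847 and 796 CPM, a ratio of 0.94 (0.645 to 1.37). None of the 7 adaptor, 6 chemokine and cytokine and 10 transcription factor genes was called. Of 8 granule genes Gzma alone was called, and lower, but as a gene of the rule it helped to choose the cells. Tyrobp had a ratio of 0.723 (0.561 to 0.932), Nkg7 of 0.815 (0.617 to 1.08), Ccl5 of 0.836 (0.743 to 0.941) and Ifng of 1.15 (0.639 to 2.12). These 4 genes and Klrk1 therefore lay within 2-fold of each other in the 2 libraries. With all 20 control members Nkg7, Ccl5 and Klrk1 were higher in IR, so their direction depends on the 3 cells. Of 5 cytokine receptor genes Il7r and Ifnar1, a chain of the type I interferon receptor, were called higher, and Ifngr1 was at 939 CPM in control and 1554 CPM in IR, a ratio of 1.65 (1.21 to 2.29). Of 7 genes of maturation and homing Cd69 was called higher, with 35 UMIs in 9 IR members and 7 UMIs in 3 control members. With all 20 control members the lists gave more calls, but so did all genes, of which 14.3% were called higher and 8.4% lower. Among those also higher were Lck and Fyn among signalling genes, Ccl3 among chemokines, and Il2rb, Ifngr1 and Tgfbr2 among cytokine receptors. Eomes was also higher among transcription factors, as were Cd27, Ccr2 and Itga4 among homing genes. Among granule genes Ctsw was higher, Ctsc and Lamp1 were lower and Gzma was not called. Ncr1 was higher among activating receptors, but it is a gene of the rule.

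The ratios of the immediate early genes Fos and Jun and of the transcription factor Klf2 are given for both cell types side by side. In killer T cells Fos had a ratio of IR over control of 5.64 (4.27 to 7.57), Jun 6.94 (5.56 to 8.75) and Klf2, a factor of quiescence and recirculation, 3.65 (3.39 to 3.93). In natural killer cells the ratios were 0.808 (0.368 to 1.77) for Fos, 1.08 (0.478 to 2.49) for Jun and 1.51 (1 to 2.3) for Klf2, without the 3. The difference between the 2 cell types was not tested. Ier2 had similar ratios, 1.72 (1.15 to 2.62) in natural killer and 1.67 (1.46 to 1.92) in killer T cells, and was called higher in natural killer cells with all 20 control members (2.39). Klf6 had 1.73 (0.89 to 3.53) and 3.99 (3.41 to 4.68). Of 12 measurable immediate early and heat shock genes none was called higher and 2 lower in natural killer cells. In killer T cells 4 of 16 were called higher, where 7.41% of all genes were, and 2 lower, where 2.66% were. The 2 lower ones were Hspa1a and Hsp90aa1 in both cell types. Cd69 was higher in both, with 4.04 (1.77 to 10.8) in natural killer and 3.5 (2.88 to 4.28) in killer T cells. Of the 4 measurable genes of interferon response and MHC class I none was called without the 3, and H2-K1 was at 4496 and 4227 CPM.

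The genes through which other cells could meet natural killer cells were measured in all other kept cells of each library. Xcr1, the receptor for Xcl1, had a UMI in 9 control and 12 IR cells, of which 7 and 9 carried at least 10 UMIs of Cd74 and H2-Ab1, as antigen-presenting cells do. The NKG2D ligands were rare: Raet1e had a UMI in 1.25% of control and 1.05% of IR cells, H60b in 0.387% and 0.381%, and Ulbp1 in 1 and 8 cells. Il15, which sustains natural killer cells, had a UMI in 1.04% and 0.915% of the other cells, and Il18 in 1.19% and 0.896%. Ifngr1, the receptor for interferon gamma, was found in 41.7% and 46.7%. These are shares of cells with a UMI at median depths of 2903.5 and 2465 UMIs and were not corrected for depth.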

How the data were processed

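Per the submitters' processing notes, Cell Ranger 3.0.1 and Seurat 3 were used, with mm10 (GRCm38) as the genome. The deposited values are raw UMI counts of 48825 features per library, with no normalization. Following the study's methods, barcodes were dropped if fewer than 200 genes were detected or if mitochondrial genes took more than 5% of UMIs. Features with the same symbol were summed.

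The members, gene lists and classes were chosen with earlier results of these data known. UMIs were summed per class and library and scaled to CPM with numpy 2.4.6, pandas 2.3.3 and scipy 1.17.1 in python 3.11.15, and figures were drawn with matplotlib 3.10.9. Genes named in the text belong to 19 lists (240 genes), to the 10 highest and 10 lowest ratios of IR over control (at least 50 UMIs, and a UMI in each library) or to the 15 genes highest over all other cells (at least 25 UMIs and a UMI in 10% of members). S100a4, S100a6, H2-Aa and Lgals3 were named after their values were seen. With 94772 control and 80431 IR UMIs in the members, 3 UMIs, the floor used where no UMI was found, are 31.7 and 37.3 CPM. Intervals take UMIs as independent molecules. The steps were tested on simulated counts.

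Doublets were scored with Scrublet in scanpy 1.11.5. It called 32 control cells and 1 IR cell, no member among them, and with 0.0189% of the IR cells called it had not worked there. The alternatives were 2 other mitochondrial limits, at least 500 genes, stricter rules for members, removal of the top 6% of doublet scores, other denominators, TMM factors (edgeR 4.0.16 in R 4.3.3), median-of-ratios size factors, CPM without secretory, mitochondrial and red cell genes, other UMI minimums and size rules, and thinning to 1000 UMIs. Added after seeing the data were leaving out the 3 control members (over 50% of UMIs on 16 secretory genes, or at least 3 UMIs of Csf1r, C1qa, C1qb and Siglech) and a minimum of 20 UMIs in the members. Some listed genes are not reported here. Positions are from GENCODE M21 and promoters from RefSeq.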

Additional observations from a re-analysis of the deposited data

Results flagged for a closer look

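Gzma was lower in IR natural killer cells, with a ratio of 0.368 without the 3 control members, and higher in IR killer T cells, with 2.47 (0.983 to 7.38) from 6 and 24 UMIs. H2-Ab1 had a ratio of 0.246 in natural killer cells (23 and 7 UMIs) and 16.7 (4.39 to 141) in killer T cells (2 and 54 UMIs). With at least 3 killer UMIs per cell the natural killer ratio of H2-Ab1 was 2.35 and with 2 killer genes 2.07, the same direction as in killer T cells. Hba-a1, a haemoglobin gene, had ratios of 0.493 (0.211 to 1.1) and 2.69 (2.26 to 3.22). Each was picked out because, without the 3 control members, the 2 cell types went in opposite directions at least 2-fold, and the difference between them was not tested. With all 20 control members the natural killer ratios were 0.538 for Gzma, a gene of the rule, and 0.682 for Hba-a1, neither of them 2-fold, and 0.14 for H2-Ab1.

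Barcodes above the mitochondrial limit also met the rule on the killer genes, 5 of 1260 in control (0.397%) and 5 of 1858 in IR (0.269%), with median depths of 863 and 1106 UMIs. Of each 5, 4 had at least 3 of the 10 independent markers. They are outside all comparisons of the report.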

How the results depend on the processing

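The IR over control ratio of shares ran from 0.951 to 1.47 over other filters, other rules for members and shares of leukocytes or lymphocytes, and each interval included 1. Per T cell it was 0.809, and per B cell 1.97 with an interval (1.12 to 3.57) above 1. With no UMI of Trac, Trbc1, Trbc2 or Cd5 allowed, 5 control and 8 IR members were left and the shares were 0.148% and 0.151%; the shares of Ptprc cells were 1.13% and 1.07% and those of lymphocytes 0.972% and 1.01%. Genes higher and lower in IR (181 and 106) became 86 and 59 with at least 3 killer UMIs, 77 and 53 with UMIs of 2 killer genes, 36 and 57 without the T-cell receptor transcripts, 36 and 36 from 50 UMIs, 1467 and 745 from 1 UMI, 383 and 200 at 1.5-fold, 48 and 53 at 3-fold and 39 and 22 after thinning. The higher count was 95 without the 3 control members. Under TMM factors there were 101 higher and 156 lower and under median-of-ratios factors 113 and 155, which turned the balance, since they moved the median gene by -0.26 and -0.24 on the log2 scale.

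Against killer T cells (501 higher, 130 lower) TMM factors gave 219 and 468 and median-of-ratios factors 222 and 458, with the median gene moved by -0.47 in control and -0.58 in IR by TMM. The higher count was 245 from 50 UMIs and 907 from 1, and the counts were 1007 and 380 at 1.5-fold, 189 and 37 at 3-fold and 132 and 16 with at least 20 UMIs in the members. The lower count was 68 with 3 killer UMIs, 65 with 2 killer genes, 54 without T-cell receptor transcripts and 81 without the 3 cells. Against Cxcr6 T cells (218, 181) the counts were 113 and 352 with TMM, 117 and 342 with median-of-ratios, 71 and 116 from 50 UMIs, 515 and 387 at 1.5-fold, 69 and 64 at 3-fold and 86 and 10 in the members; the higher count was 558 from 1 UMI and the lower 36 without T-cell receptor transcripts. Against B cells (780, 206) they were 351 and 548 with TMM, 373 and 521 with median-of-ratios, 1348 and 409 at 1.5-fold, 358 and 92 at 3-fold and 208 and 13 in the members, with 448 higher from 50 UMIs and 31 lower without T-cell receptor transcripts.

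Only some of the named genes were followed through these settings, and a turn was counted only where the main ratio was at least 2-fold. Smaller differences that crossed 1 were not counted. Genes whose ratio turned, with the cause not tested unless the 3 cells held the UMIs, included these. Without the 3 cells the IR ratio was 1.56 for BC037156, 1.27 for Car6, 2.95 for Chia1, 1.62 for Ctsb and 3.84 for Psap. Dnase1 and Cst10, which were not followed through the settings, turned as well, to 2.47 and 2.07. With at least 3 killer UMIs it was 1.49 for BC037156, 1.25 for Car6, 1.25 for Cd74, 2.97 for Chia1, 1.17 for Ctsb, 2.35 for H2-Ab1, 1.13 for H2-Eb1 and 6.65 for Psap, and with 2 killer genes 1.45 for BC037156, 1.19 for Car6, 3.27 for Chia1, 2.07 for H2-Ab1 and 4.43 for Psap. Without T-cell receptor transcripts it was 1.57 for BC037156, 1.16 for Car6 and 3.3 for Chia1, and after thinning 1.03 for Chia1. In the 5 control members without such transcripts the ratios over killer T cells were 0.592 for Eomes, 0.922 for Il2rb and 0.929 for Klrd1, and over Cxcr6 T cells 0.232 for Ccl5 and 0.568 for Nkg7. Of all values for single genes, 1509 were counted as the same, 146 as moved and 28 as turned. A value counted as the same could still differ from the main ratio within the counting interval of that ratio, which is often wide. The count of 1509 is therefore no measure of how stable the ratios are. No paired analysis was possible because each condition is 1 library, and for the same reason no replicate could be left out. Genes under about 20 UMIs in the members have wide intervals.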
